A study of Mus musculus with 20 samples.

Results

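Skeletal muscle and brain of wild-type mice were compared gene by gene on the same bead array platform, to show which genes each tissue expresses alone, where the tissues use different members of one gene family, and what they share. The members are 4 muscle arrays and 6 brain arrays, 10 of the 20 arrays of the study, taken by the tissue and genotype in the sample titles. The study set muscle and brain of mice carrying a mutant human TDP-43 transgene beside tissue of control mice, and only the controls are described below. All 10 mice were 17 weeks old and on the C57BL/6J background, and the genotype label of both groups reads heterozygote wt. Each array carries its own mouse number, so muscle and brain came from different animals and every array is a separate mouse. The labels do not say which muscle was taken or whether the whole brain was used. Any batch that went with a tissue and the tissue itself cannot be told apart.

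Skeletal muscle is built of long multinucleate fibres packed with sarcomeres, in which myosin thick filaments slide along actin thin filaments anchored at Z-discs. Calcium released from the sarcoplasmic reticulum starts each contraction through troponin, and creatine kinase, glycolysis and fatty acid oxidation replace the ATP that is spent. Brain tissue is a mixture of neurons, which signal by releasing transmitter from synaptic vesicles, and of glia, among them the oligodendrocytes that wrap axons in myelin. Many housekeeping proteins exist as a form for muscle and a form for other tissues, each encoded by a gene of its own.

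Levels are normalized log2 intensities, differences are muscle minus brain on that scale, and a gene is represented by the brightest of its tested probes. A probe was tested when it was above background (detection p under 0.05) on at least 4 of the 10 arrays, which held for 13629 of 25697 probes and for 9651 named genes. A gene was called higher in a tissue when its limma p, adjusted by Benjamini-Hochberg over all probes tested, was under 0.05 and the difference was at least 2-fold. By this rule 1978 genes (20.5% of those tested) were higher in muscle and 2106 genes (21.8%) were higher in brain. At any size of difference 7244 genes (75.1%), or 10051 probes (73.7%), passed the adjusted p, so passing it says little about a single gene and the size of the difference carries the comparison. More than 16-fold differences were seen in 165 genes called higher in muscle and 327 called higher in brain. Differences were centred near 0, with a median of 0.0077 over all genes. Quantile normalization gives every array the same distribution of levels, so this centre is largely set by the method.

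Several arrays have to be known before the results. Between 11481 and 12446 probes per muscle array exceeded background (11833 ± 423, SD, n = 4), against 12190 to 12966 on a brain array (12578 ± 278, SD, n = 6), a difference of -744.5 probes (exact two-sided permutation p = 0.019, where the smallest possible is 0.00952). Muscle replicate 2 and brain replicates 2 and 4 stood apart from the other arrays of their tissue on the first principal component and were brighter. Correlations between arrays were 0.973 to 0.99 within muscle and 0.952 to 0.991 within brain, against 0.593 to 0.617 between the tissues. Without those 3 arrays 1904 genes were higher in muscle and 2005 higher in brain. The study describes male mice, yet Eif2s3y, a gene of the Y chromosome, was above background on all 4 muscle arrays and on brain replicates 1, 2 and 4, and on none of brain replicates 3, 5 and 6. Eif2s3y read 8.61, 8.66, 7.94 and 8.27 in muscle, against 4.24, 5.62 and 7.53 as the lowest, median and highest brain level. Other sex-linked probes were dim and mixed. The Y-linked Uty was above background on brain replicates 3 and 5 (4.84 and 4.79). Uty and the Y-linked Kdm5d were not above background on muscle replicate 3 or brain replicate 6. A probe of Xist, from the X chromosome, was above background on brain replicates 3, 5 and 6 (5.09, 5.66 and 5.51) and on brain replicate 4 (4.68). By Eif2s3y, the share of the brain arrays that goes against the label differs from that of the muscle arrays. The part of this in the tissue differences was not tested beyond leaving out brain replicates 3, 5 and 6. That gave 2040 genes higher in muscle and 2184 higher in brain.

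**Figure D1:**
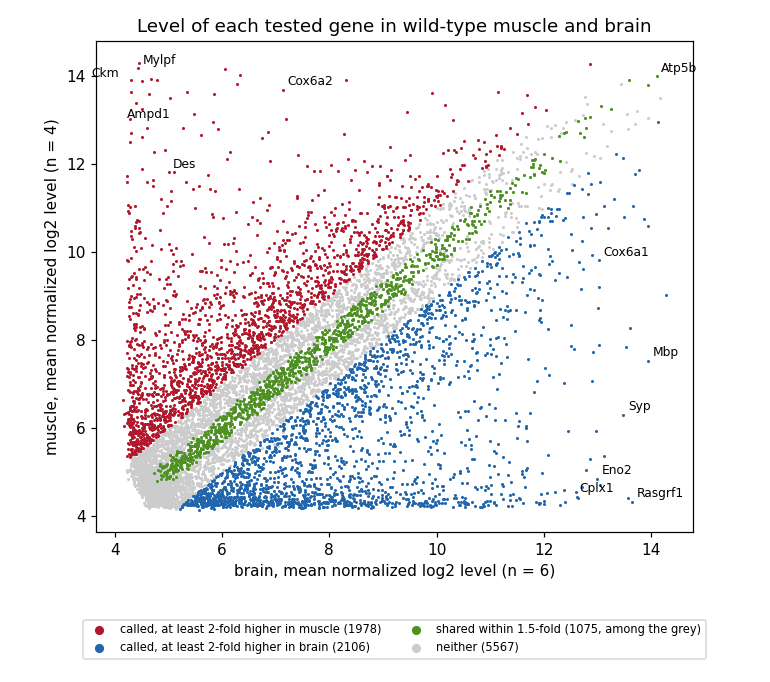
Mean normalized log2 level of each tested gene in muscle (vertical axis, n = 4) against brain (horizontal axis, n = 6), with red points for the 1978 genes called at least 2-fold higher in muscle, blue for the 2106 called higher in brain, green for the 1075 shared genes and grey for the rest. Red points along the left edge and blue points along the bottom edge are genes at background level in the other tissue.

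Marker genes went with the tissue labels. The skeletal muscle markers Acta1, Ckm, Myh4, Tnnt3, Ttn and Mylpf were all above background on the 4 muscle arrays and higher there. The neuronal markers Syt1 and Rbfox3 lay between 4.2 and 4.46 in muscle, where neither was above background, and between 10.8 and 11.3 in brain. Stmn2, a tubulin-binding protein of growing neurites and a marker of the same list, was above background on all 4 muscles, at 5.58 to 6.03, against 11.2 to 12 in brain. The myelin gene Mobp was above background on no muscle array, at 4.2 to 4.32 in muscle and 9.16 to 10 in brain. The probes for Snap25 and Nefl, a pair of neuronal genes, were above background on 0 of the 10 arrays and the probe for Tubb3 on 1 muscle array, so these probes give no measure of their genes. The heart troponin Tnni3 and the keratins Krt5 and Krt14 were above background on 0 muscle arrays and 0 brain arrays. Other heart and skin markers were measured, among them the heart myosin Myh6 at 4.98 to 6.75 in muscle and 4.21 to 5.69 in brain, the heart peptide Nppa at 4.28 to 4.44 and 4.29 to 6.57, and the keratin Krt10 at 7.6 to 7.86 and 8.62 to 8.86.

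The largest differences of all belonged to the contractile apparatus of fast muscle fibres. Tnnc2, the calcium-binding troponin C of fast fibres, read 14.3, 14.3, 14.3 and 14.2 in the 4 muscles, against a lowest, median and highest of 4.28, 4.43 and 4.76 in the 6 brains. Every brain lay at or close to background, a difference of 9.82 (95% interval 9.57 to 10.1, limma adjusted p = 5.18e-15). A level of 14.3 is the highest that quantile normalization gives on these arrays, so the closeness of the 4 muscles at that level is set by the method. Mylpf, the regulatory light chain of fast myosin, read 14.2, 14.2, 14.2 and 14.1 in muscle and 4.38, 4.44 and 4.52 in brain as lowest, median and highest. It was above background on no brain array, so its fold is a lower bound, at least 761-fold higher in muscle. Myh4, the heavy chain of the fastest fibres, read 13, 12.9, 13.1 and 13.2 in muscle against 4.2, 4.27 and 4.44 in brain, at least 345-fold higher in muscle. Ttn, the giant spring protein that spans the sarcomere, read 13.6, 13.6, 13.5 and 13.6 in muscle against 4.38, 4.56 and 5.27 in brain, a 496-fold difference. Ttn was above background on 2 of the 6 brains, so the size of this fold rests largely on background level. Its highest brain value came from replicate 2, an array that stood apart.

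Promoters of 3 of the 15 genes with the largest difference in muscle are shown. Myh4 and Ttn were picked for holding the most kinds of the matches below, so they are not typical of the 15. Mylpf held 1 kind, as did Ckm, Atp2a1, Ckmt2 and Mybpc2. Sequences run from 250 bases before to 50 bases after the RefSeq transcription start of build GRCm38.p6, 5′ to 3′, with capitals for matches on either strand to TATAAA (the core promoter box), to the E-box core CAGCTG that MyoD-family factors favour, to the core CATTCC recognised by TEAD factors, or to the consensus of MEF2, the muscle transcription factor family. Of the 15 genes with the largest difference in muscle, 8 had a promoter with a single start in the RefSeq table. Of these 8 promoters, 1 held TATAAA, 5 CAGCTG, 3 CATTCC and 2 the MEF2 consensus.
Myh4: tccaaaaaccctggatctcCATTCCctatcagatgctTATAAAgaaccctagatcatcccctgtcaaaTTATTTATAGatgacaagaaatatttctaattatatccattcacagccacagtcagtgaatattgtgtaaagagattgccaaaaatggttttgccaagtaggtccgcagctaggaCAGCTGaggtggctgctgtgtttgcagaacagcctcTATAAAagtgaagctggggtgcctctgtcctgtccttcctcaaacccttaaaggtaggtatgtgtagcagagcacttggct
Ttn: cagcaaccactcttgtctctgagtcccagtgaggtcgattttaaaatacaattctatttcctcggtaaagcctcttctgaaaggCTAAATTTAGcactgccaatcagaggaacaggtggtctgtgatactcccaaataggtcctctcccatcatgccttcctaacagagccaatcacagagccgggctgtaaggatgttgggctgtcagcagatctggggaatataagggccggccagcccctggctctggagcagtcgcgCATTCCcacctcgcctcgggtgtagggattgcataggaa
Mylpf: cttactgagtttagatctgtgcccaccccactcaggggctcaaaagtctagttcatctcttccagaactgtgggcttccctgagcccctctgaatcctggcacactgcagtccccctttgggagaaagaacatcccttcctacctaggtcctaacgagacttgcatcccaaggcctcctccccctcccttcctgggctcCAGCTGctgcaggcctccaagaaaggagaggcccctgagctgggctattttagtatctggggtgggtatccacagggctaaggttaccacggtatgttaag
The Myh4 window lies at chr11:67237562-67237861, plus strand, the Ttn window at chr2:76982498-76982797, minus strand and the Mylpf window at chr7:127211358-127211657, plus strand. Myh4 held 3 matches to TATAAA and 1 match to CAGCTG, as well as 1 to CATTCC and 1 to the MEF2 consensus, and Ttn held 1 CATTCC and 1 MEF2 match. Mylpf held a single CAGCTG. A match is a description of the letters in this window, not a binding site.

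Over the 104 promoters found for genes more than 16-fold higher in muscle, 14.4% held a MEF2 consensus, against 1.87% of the 6109 promoters found for all genes tested. CAGCTG was present in 32.7% against 15.3%, CATTCC in 25% against 12%, and TATAAA in 24% against 8.48%. Over the 1305 promoters of all genes called at least 2-fold higher in muscle, the shares were closer to those of all genes tested. They were 3.22% for MEF2, 15.8% for CAGCTG, 14.9% for CATTCC and 11% for TATAAA. Over all 22862 promoters with a single start, tested or not, they were 3.35%, 16.1%, 14.6% and 14.8%. The TATAAA and MEF2 patterns overlapped in 6 of the 104 promoters. CpG content also differed. Promoters with at least 10 CpG dinucleotides made up 41.3% of those of genes over 16-fold higher in muscle, 72.8% of those of genes over 16-fold higher in brain and 92.3% of those of shared genes. Among all genes tested the share was 81.5%, and over all 22862 promoters with a single start it was 42.9%. The MEF2 consensus was in 1.16% of promoters of genes over 16-fold higher in brain, CAGCTG in 19.7%, CATTCC in 12.7% and TATAAA in 11.6%.

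The rest of the sarcomere followed. Lists of genes by function were read as counts beside the background of 20.5% higher in muscle and 21.8% higher in brain, with a median of 0.0077 over all genes. Differences of genes above background on no array of a tissue are bounds, and with these genes at their bound the list medians moved by at most 0.4. Of 14 tested genes of the thick filament, 13 were higher in muscle (median difference 6.19). The exception was Mybpc3, the heart form of myosin-binding protein C, which read 4.55, 4.25, 5.13 and 4.33 in muscle against 4.47, 5.08 and 5.82 in brain, groups that overlap (difference -0.49, limma adjusted p = 0.0896). Mybpc2, its fast skeletal counterpart, was at least 274-fold higher in muscle. All 32 tested genes of the Z-disc, titin and costamere list were higher in muscle, from 1.08 for Sgcb, a sarcoglycan of the membrane complex, to 9.24 for Actn3, the alpha-actinin of fast fibres (median 5.38). Of 15 thin filament genes 11 were higher, led by the fast troponins Tnnc2, Tnni2 and Tnnt3. The other 4 did not reach 2-fold, among them the tropomyosin Tpm1 at -0.83 (limma adjusted p = 1.88e-05) and Capza1, a subunit of the actin capping protein with a dim probe, at 0.06 (95% interval -0.3 to 0.42).

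Genes that couple excitation to contraction were higher in muscle for 19 of 21 tested members (median 3.73). Atp2a1, the fast calcium pump of the sarcoplasmic reticulum, read 13.9, 13.8, 14 and 13.9 in muscle against 4.57, 4.76 and 5.16 in brain, a 546-fold difference (limma adjusted p = 1.53e-14). Ryr1, the calcium release channel, read 12.8, 13.3, 12.9 and 13 against 6.38, 7.24 and 7.68, a 57.2-fold difference in which no muscle overlapped any brain. Casq1, the calcium store protein, was at least 58.7-fold higher in muscle. Pvalb, a calcium buffer used by fast fibres and by a class of inhibitory neurons, is also bright in brain. It read 14.3 in each of the 4 muscles, against 12, 12.9 and 13.4 in brain, a 2.65-fold difference (limma adjusted p = 5.58e-05). Its muscle level is at the top of the quantile-normalized scale, and with arrays scaled to a common median its difference was 2.36 in place of 1.4.

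At the neuromuscular junction 5 of 10 tested genes were higher in muscle and 2 in brain, or 3 and 0 without background correction. The acetylcholine receptor subunit Chrnb1 read 9.35, 9.51, 9.28 and 9.39 in muscle against 4.64, 4.93 and 5.25 in brain, and Rapsn, which clusters the receptor, differed by 3.65. Ache, the esterase that ends the transmitter's action, was higher in brain (difference -1.25). Among regulators of the muscle programme, 8 of 16 tested genes were higher in muscle, or 5 without background correction. Myf6, a MyoD-family transcription factor of mature fibres, was at least 45.4-fold higher there, at 9.94, 10, 10.1 and 10.3 in muscle against 4.21, 4.36 and 4.43 in brain. Vgll2, a cofactor of TEAD factors, was at least 28.9-fold higher.

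Fuel metabolism also separated the tissues. Of 44 tested genes of muscle energy metabolism 37 were higher in muscle (median 3.66) and 0 higher in brain. Ckm, the cytosolic creatine kinase of muscle, read 14, 13.6, 14 and 14 in muscle and 4.16, 4.28 and 4.53 in brain, at least 631-fold higher in muscle. Ampd1, the AMP deaminase of muscle, was at least 443-fold higher. By quantile normalization the glycolytic enzymes Gapdh and Pgk1 were near equal, with differences of 0.38 (limma adjusted p = 0.00302) and 0.24. Of 20 tested genes of fatty acid beta-oxidation 19 were higher in muscle (median 2.67), with Cpt1b, which passes fatty acids into mitochondria, at 11.2, 11, 11.3 and 11.2 in muscle against 4.51, 5.12 and 5.39 in brain. Hadh alone of the 20 missed the 2-fold limit, at least 1.56-fold higher. Pdk4, a pyruvate dehydrogenase kinase that curbs pyruvate oxidation in fasting, read 11.8, 12.3, 12.4 and 12 in muscle against 5.42, 6.22 and 6.68 in brain, a 64.9-fold difference.

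Mitochondrial genes were higher in muscle as a group, and by less. Of 69 tested genes of the respiratory chain and ATP synthase 38 were higher in muscle, 2 higher in brain and 7 within the shared interval defined below (median 1.06). With arrays scaled to a common median in place of quantile normalization, 63 were higher in muscle. Of 16 tested genes of the tricarboxylic acid cycle and pyruvate oxidation 13 were higher, led by Mdh2, the mitochondrial malate dehydrogenase, at 2.85. Idh3b, a subunit of isocitrate dehydrogenase, went the other way at -3.08.

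**Figure D2:**
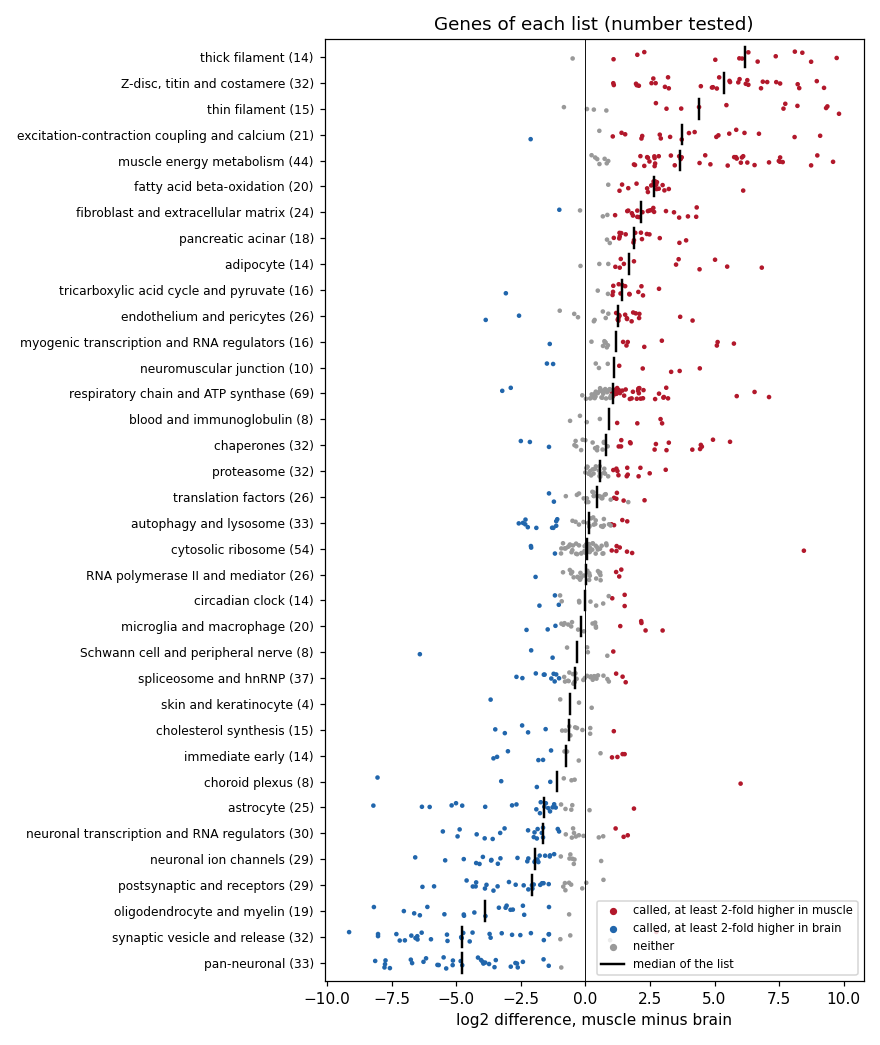
Difference of every tested gene in each functional or cell type list (horizontal axis, muscle minus brain, log2), with red for genes called higher in muscle, blue for genes called higher in brain, grey for neither and a black bar at the list's median. Contractile and fuel lists lie to the right, with medians from 2.67 to 6.19, the neuronal and synaptic lists to the left, with medians down to -4.77, and ribosome, polymerase and clock lists lie around 0.

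On the brain side the largest differences were in genes of neuronal signalling. Rasgrf1, a Ras activator driven by calcium in neurons, read 4.41, 4.31, 4.28 and 4.32 in muscle and 13.6, 13.6 and 13.8 in brain as lowest, median and highest. It was above background on no muscle array and at least 492-fold lower in muscle. Cplx1, a complexin that clamps synaptic vesicles before release, read 4.9, 4.29, 4.23 and 4.24 in muscle against 13.4, 13.6 and 13.8 in brain, a difference of -9.15 (limma adjusted p = 3.58e-14). Muscle replicate 1 was the only muscle above background for it. Eno2, the neuronal enolase, read 5.15, 4.73, 4.53 and 5.01 in muscle against 12.7, 13 and 13.2 in brain, a 282-fold difference. Syn1, which tethers vesicles to the cytoskeleton, read 4.6, 5.05, 4.42 and 4.3 in muscle against 11.9, 12.2 and 12.9 in brain, a 220-fold difference.

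The Syn1 promoter is shown because it holds, in capitals, TTCAGCACC, part of the element bound by REST, a repressor of neuronal genes in other tissues. It lies at chrX:20920869-20921168, minus strand of GRCm38.p6, per RefSeq.
Syn1: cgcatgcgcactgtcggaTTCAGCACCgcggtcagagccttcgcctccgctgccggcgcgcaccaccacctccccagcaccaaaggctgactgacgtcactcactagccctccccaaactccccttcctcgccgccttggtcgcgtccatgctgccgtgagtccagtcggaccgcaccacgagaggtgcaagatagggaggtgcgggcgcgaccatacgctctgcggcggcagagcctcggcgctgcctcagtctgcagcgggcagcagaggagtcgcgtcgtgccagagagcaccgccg
Of the 15 genes with the largest difference in brain, 8 had a promoter with a single start, and Syn1 alone of those 8 held this pattern. It was present in 4 of 173 promoters found for genes over 16-fold higher in brain (2.31%), in 0 of 104 for genes over 16-fold higher in muscle and in 0.393% of those of all genes tested.

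Of 33 tested pan-neuronal genes 32 were higher in brain (median -4.77) and 12 were above background on every brain and no muscle array. The exception was Calm3, a calmodulin, at -0.93. Synaptic vesicle and release genes were higher in brain for 28 of 32 members and higher in muscle for 1 (2.75). Among the 28 were Sh3gl2 at -8.03 and Dnajc6, at least 195-fold lower in muscle, which recycle vesicles. Syp, the vesicle protein synaptophysin, read 5.95, 6.88, 6.3 and 6.04 in muscle against 13.1, 13.4 and 13.8 in brain, so it was above background in every muscle and still 146-fold lower there. Of 29 postsynaptic genes 21 were higher in brain, including the glutamate receptor subunit Gria2 (-6.31), and of 29 ion channel genes 22, led by the potassium channel subunit Kcnab2 (-6.59). Without background correction 12 postsynaptic and 12 ion channel genes were higher in brain. Camk2a, a kinase of the postsynaptic density, read 9.52, 9.76, 9.8 and 9.68 in muscle against 10, 11.3 and 12.1 in brain, 2.67-fold lower in muscle with no overlap between the groups (limma adjusted p = 0.00387). Among neuronal regulators 18 of 30 were higher in brain and 3 in muscle, or 9 and 0 without background correction. The transcription factor Myt1l was at least 38.9-fold lower in muscle.

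Glial genes were also higher in brain. Oligodendrocyte and myelin genes were higher there for 18 of 19 members (median -3.87). Cldn11, a tight junction protein of myelin, read 4.59, 4.41, 4.25 and 4.45 in muscle against 12.2, 12.7 and 12.9 in brain, at least 243-fold lower in muscle. Mbp, myelin basic protein, read 7.39, 7.54, 7.56 and 7.61 in muscle against 13.7, 14 and 14.1 in brain, and was above background in all 10 mice. Of 25 astrocyte genes 19 were higher in brain and 1, Ndrg2, was higher in muscle (1.88). Aldoc, the aldolase of astrocytes and Purkinje cells, was at least 245-fold lower in muscle. Glul, the glutamine synthetase that marks astrocytes in brain, differed by 0.16, within the shared interval. The probe for Gfap was dim in brain, between 4.69 and 5.62. Ttr, the thyroxine carrier made by choroid plexus, read 4.63, 4.49, 4.5 and 4.58 in muscle against 11.7, 12.7 and 13.4 in brain.

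Above background on every array of one tissue and no array of the other were 251 genes in muscle (2.6% of those tested) and 686 in brain (7.11%). The brightest of the muscle genes included Abra, an actin-linked activator of serum response factor signalling, Ppp1r27 and Car3, a carbonic anhydrase of slow fibres and fat. Car3 read 11, 11.4, 11.3 and 10.5 in muscle against 4.21, 4.23 and 4.29 in brain. Brain counterparts included Kif5a, a neuronal kinesin, at least 158-fold lower in muscle, and Nrgn, a postsynaptic calmodulin-binding protein, at least 52.6-fold lower.

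In many gene families 1 member was called higher in muscle and another higher in brain. Of 70 families listed, 57 had at least 2 tested members and 31 of these split in this way. The families were chosen with earlier results of these data known. With 20.5% of all genes called higher in muscle and 21.8% in brain, some families would split in any case. No background share was computed, so the 31 describe these families only. Creatine kinase was split in both compartments. Beside Ckm, above background on no brain array, Ckb read 9.17, 9.12, 9.04 and 8.71 in muscle against 14.2, 14.3 and 14.3 in brain (difference -5.26). Of the mitochondrial forms Ckmt2, above background on 2 of the 6 brains, differed by 8.74. Ckmt1 was at least 142-fold lower in muscle. Enolase split between Eno3 at 13.8 in each of the 4 muscles, against 5.77, 6.22 and 6.79 in brain, and Eno2, described above. In glycolysis, opposite differences were also found for Aldoa (2.48) and Aldoc (at least 245-fold lower), for Pfkm (1.88) and Pfkp (-4.0), for Pgam2 (7.53) and Pgam1 (-2.7), and for the first enzyme, Hk2 (5.83) and Hk1 (at least 2.17-fold lower). Hk1 was above background on no muscle array and lay between 4.59 and 6.7 in brain, so it rests on a dim probe, and without brain replicates 3, 5 and 6 its difference of -1.01 did not pass the adjusted p.

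Some subunits of the respiratory chain split within the same enzyme. Cox6a2, the heart and muscle form of a cytochrome oxidase subunit, read 13.7, 13.7, 13.6 and 13.8 in muscle against 6.29, 7.29 and 7.52 in brain. Cox6a1, the common form, read 9.65, 10.5, 9.66 and 9.39 in muscle against 12.8, 13 and 13.2 in brain. Neither gene overlapped between tissues, and the differences were 6.55 and -3.22 (limma adjusted p = 2.26e-11 and 6.02e-09). Subunit 8 split in the same manner, with Cox8b at 7.11 and Cox8a at -2.89. Subunit 7a did not split, with Cox7a1 (5.86) and Cox7a2 (1.05) both called higher in muscle. The only members of the respiratory chain list called higher in brain were Cox6a1 and Cox8a.

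Stored and imported sugar followed suit. The glycogen phosphorylases Pygm (6.27) and Pygb (-2.73) split, as did Slc2a4, the insulin-responsive glucose transporter (5.76), from Slc2a1 (-2.57) and Slc2a3 (-2.32), which serve barrier and neurons. The carnitine palmitoyltransferases Cpt1b (6.11) and Cpt1c (at least 2.92-fold lower) and the deaminases Ampd1 (at least 443-fold higher) and Ampd2 (-2.56) did too. Slc2a4 was above background on 3 of the 6 brains and Ampd2 on 1 muscle, so their sizes rest partly on background level. The genes of a ribosomal protein split as well, with both above background in every muscle. Rpl3l, the muscle form of ribosomal protein L3, read 13.4, 13.5, 13.5 and 13.5 in muscle against 4.71, 4.88 and 5.71 in brain, while Rpl3 itself read 10.4, 10.3, 10.4 and 10.5 in muscle against 12.2, 12.5 and 12.9 in brain. Their differences were 8.46 and -2.11, and no muscle overlapped a brain for either gene.

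Calcium handling and membranes showed the same arrangement. The pumps Atp2a1 (9.09) and Atp2a2 (-2.12), the release channels Ryr1 (5.84) and Ryr3 (-2.29) and the junctophilins Jph1 (4.01) and Jph3 (at least 19.2-fold lower) each split. Ryr3 was above background on 1 muscle and Jph1 on 3 of the 6 brains, so their sizes rest partly on background level. Atp2a2, the pump of slow fibres, heart and neurons, read 11.6, 11.8, 10.8 and 9.17 in muscle against 12.9, 13 and 13.1 in brain, with muscle replicate 4 the lowest. Sypl2, the mitsugumin of the muscle triad and a relative of synaptophysin, read 12, 11.5, 11.7 and 12 in muscle against 4.81, 5.12 and 5.36 in brain. The desmin gene Des, at 11.8, 11.6, 11.9 and 11.9 in muscle against 4.96, 4.98 and 5.17 in brain, faced the neurofilaments Nefh (at least 13.1-fold lower) and Nefm (at least 13.5-fold lower).

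**Figure D3:**
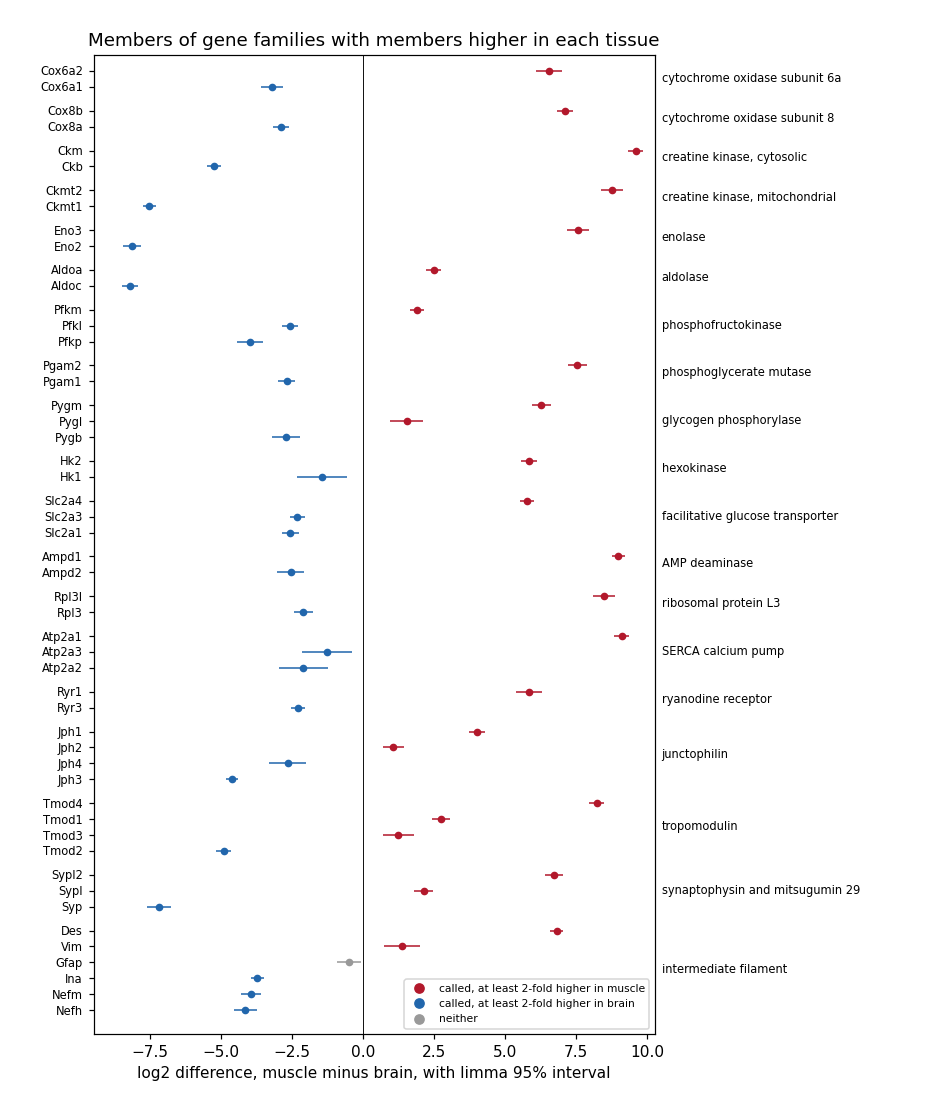
Difference (muscle minus brain, log2, points) with limma 95% interval (bars) for the tested members of 19 of the 31 families with members called in each direction, red for higher in muscle, blue for higher in brain and grey for neither. Each family has points on both sides of 0, from Cox6a2 at 6.55 and Cox6a1 at -3.22 at the top to Des at 6.8 and the neurofilaments on the left at the bottom. Members above background on no array of a tissue are drawn at the fitted value, which is not a measured size.

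Probes of a single gene also differed in opposite directions in some cases. Of 4156 probe pairs in 2411 genes, 1953 pairs (47%) differed in their tissue difference by the limma test of the pair. Only 28 pairs (0.674%) had a probe called higher in each tissue, in 15 genes. Without background correction 4 genes switched, with an offset of 50 before log2 5 did, and with limma's treat test at 2-fold 4 did. For 9 of the 15 genes a switching pair was annotated to different RefSeq transcripts. For the other 6 both probes carried the same transcript, so the annotation does not tell the forms apart. Among the 9, Kif1b, Tcf25, Mapk9 and Pde4dip also had a switching pair annotated to a single transcript, so the same limit holds for them.

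Kif1b, a kinesin that carries mitochondria and vesicle precursors along axons in differently spliced forms, switched most. Probe ILMN_3034877 read 11.9, 12, 12.1 and 12.2 in muscle against 5.9, 6.58 and 6.72 in brain, a difference of 5.64. Probe ILMN_2670778, annotated to another transcript, read 9.61, 9.47, 9.37 and 9.67 in muscle against 11.9, 12.4 and 12.4 in brain, a difference of -2.75. A further probe annotated to that same transcript, ILMN_2647921, was higher in muscle (1.4) and also switched against ILMN_2670778, so the directions do not follow the annotated transcripts alone. The first 2 probes differed from each other by -8.39 (95% interval -8.83 to -7.95, limma adjusted p = 4.37e-11). Syngr1, a synaptic vesicle membrane protein, had a probe at 8.97, 9.13, 8.96 and 8.85 in muscle against 5.98, 6.07 and 6.68 in brain, ILMN_3101732. Its other form was near background in muscle, at 4.69, 4.97, 4.81 and 4.64, against 8.03, 8.13 and 8.52 in brain (ILMN_2652711). A further probe for each of the Syngr1 transcripts gave differences of 2.68 and -3.33.

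Dnajb6, a chaperone of the Z-disc and of aggregation-prone proteins, had a muscle-high probe (difference 2.73) and a brain-high probe (-1.82) on different transcripts. The muscle-high probe, ILMN_3060442, read 9.69, 9.51, 9.76 and 9.65 in muscle against 6.68, 6.96 and 7.1 in brain. Pde4dip, or myomegalin, had probes at 3.18 and -1.13 on different transcripts, and another at 1.5 on the same transcript as the probe at -1.13. Ptpre, a receptor-type tyrosine phosphatase, switched between probes annotated to the same transcript (3.52 and -2.35). Kif1b, Syngr1, Ptpre and Dnajb6 switched in all 24 alternative analyses. Tpi1, the glycolytic triosephosphate isomerase, did so in 10 of them, and its brain values overlapped muscle for the probe that fell (ILMN_1231447, 6.17, 7.82 and 8.41 in brain, against 6.49, 6.48, 6.48 and 6.35 in muscle).

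**Figure D4:**
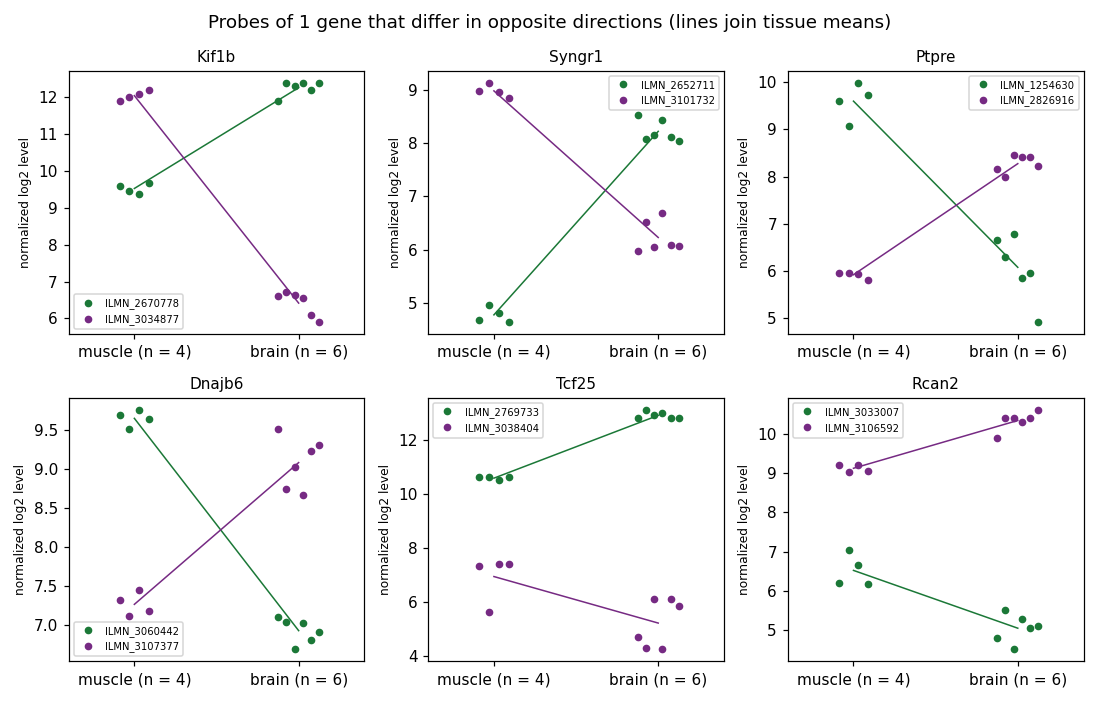
Normalized log2 level (vertical axis) of a pair of probes of the same gene on each of the 4 muscle and 6 brain arrays, for the 6 genes with the strongest opposite differences, green and purple for the 2 probes and lines joining the tissue means. In each panel 1 line runs up and the other down, as for Kif1b with 5.64 and -2.75.

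Above background on all 10 arrays were 6243 genes, and 1075 genes (11.1% of those tested) also had a 95% interval of the difference that lay within 1.5-fold in either direction. The brightest were mitochondrial, ribosomal and iron-storage genes. Atp5b, the catalytic beta subunit of ATP synthase, read 14.1, 14, 13.9 and 13.9 in muscle against 14.1, 14.1 and 14.1 in brain, a difference of -0.12 (95% interval -0.31 to 0.071). This rests on quantile normalization. With arrays scaled to a common median Atp5b differed by 0.84, Fth1, the ferritin heavy chain, by 0.89 in place of -0.15, and 256 genes were shared. By quantile normalization Rps20, a protein of the small ribosomal subunit, read 13.2, 13.4, 13.2 and 13.2 in muscle against 13.1, 13.3 and 13.4 in brain. Atp5g3 and Uqcrh, further respiratory genes, had differences of 0.32 and 0.34 that passed the adjusted p but stayed within the interval. The Atp5b promoter, at chr10:128083057-128083356, plus strand (GRCm38.p6, RefSeq), is shown as an example of the shared genes, with its single CAGCTG in capitals and 18 CpG dinucleotides against 1 in Myh4.
Atp5b: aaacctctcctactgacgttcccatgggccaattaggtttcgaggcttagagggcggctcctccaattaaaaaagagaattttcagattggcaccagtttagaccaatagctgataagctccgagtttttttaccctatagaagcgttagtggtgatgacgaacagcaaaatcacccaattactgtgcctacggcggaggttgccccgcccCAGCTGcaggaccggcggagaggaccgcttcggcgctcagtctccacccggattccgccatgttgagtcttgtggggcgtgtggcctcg

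The cytosolic ribosome was near even by quantile normalization. Of 54 tested genes of the cytosolic ribosome 20 were shared, 7 higher in muscle and 3 higher in brain (median 0.072). With arrays scaled to a common median, 14 were higher in muscle and 2 in brain (median 0.63). Rps15a, of the small subunit, was lower in muscle (-2.1), and Rplp0 of the stalk higher (1.81). Of 32 proteasome genes 10 were shared, 11 higher in muscle and 0 higher in brain, with Psme4, the activator PA200, at 3.11 and the subunit Psmd8 at 2.49. RNA polymerase II and mediator genes were shared for 11 of 26 members. The autophagy and lysosome list went both ways. Its 11 genes higher in brain included the proton pump subunits Atp6v1h (-2.58) and Atp6v1b2 (-2.42), and numbered 7 with arrays scaled to a common median, whereas the lysosome membrane proteins Lamp2 (1.43) and Scarb2 (1.62) were higher in muscle. Of 32 chaperones 15 were higher in muscle, led by the small heat shock proteins Hspb6 (5.6) and Hspb1 (4.94), and 3 in brain. Of these, Hspa2 was the lowest at -2.5. Cholesterol synthesis genes were higher in brain for 5 of 15 members, with Sqle at -3.49. Of 14 immediate early genes 4 were higher in muscle and 6 in brain, or 1 and 4 without background correction or with an offset of 50, and 5 and 8 without brain replicates 3, 5 and 6, with Atf3 (1.52) and Klf4 (1.44) against Arc (-3.56) and Egr4 (at least 8.12-fold lower).

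Other cell types differed between the samples too, and in bulk tissue fewer cells of a type and less RNA per cell cannot be told apart. Fibroblast and extracellular matrix genes were higher in muscle for 20 of 24 members, with Col1a1 between 7.78 and 10.8 in muscle and between 4.44 and 5.01 in brain. The 10.8 is muscle replicate 2, an array that stood apart, which was also highest on the list as a whole, at a mean of 9.12 beside 8.19 to 8.26 in the other muscles. Without it Col1a1 differed by 3.18 in place of 3.97. Endothelial and pericyte genes were higher in muscle for 16 of 26 members. Mfsd2a, a lipid transporter of the blood-brain barrier (at least 10.6-fold lower in muscle), and Slc2a1 were the only 2 higher in brain. Adipocyte genes were higher in muscle for 11 of 14, or 7 without background correction, with Adipoq at 9.07 to 9.73 in muscle against 4.24 to 4.6 in brain, although the probe for Fabp4 was above background on 0 arrays. Muscle replicate 2 was highest on that list too, at a mean of 9.5 beside 8.63 to 9.13 in the other muscles. Of 20 microglial and macrophage genes 5 (25%) were higher in muscle and 3 (15%) in brain, near the shares over all genes, and without background correction 3 and 0 were. The microglial receptor Cx3cr1 was at least 3.89-fold lower in muscle, and Cd163, of tissue macrophages, at least 6.76-fold higher. Lyz2, of the same cells, differed by 2.33, or by 1.65 without muscle replicate 2, where it read 10.6 beside 7.91 to 8.19 in the other muscles. The mean of the list was 6.6 in muscle replicate 2 and 5.86 to 6 in the other muscles.

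Pancreatic acinar genes were higher in muscle for 16 of 18 tested members, and 13 were above background on every muscle and no brain array. Cela2a, a pancreatic elastase, lay between 7.82 and 8.79 in muscle and between 4.26 and 4.5 in brain, and Amy2a5, a pancreatic amylase, between 7.75 and 8.3 and between 4.32 and 4.44. These are dim probes, and without background correction 3 of the 18 were called at least 2-fold higher in muscle. The mean level of the list was 6.02 to 6.78 over the muscles, against 4.36 to 4.47 over the brains. The part of pancreatic RNA in the tissue differences was not tested.

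Genes of fibre type and brain region were among those with the largest SD between mice of a tissue. Muscle replicate 4 was low in slow-fibre genes. Myl3, the light chain of slow myosin, read 12.5, 12.5, 12.1 and 8.38 in muscle replicates 1 to 4, Tnnc1, the slow troponin C, 11.7, 11.7, 10.6 and 7.46, and Tnnt1, the slow troponin T, 11.7, 11, 10.4 and 7.93. Their brain ranges were 4.33 to 6.56, 6.33 to 7.58 and 6.35 to 8.0, so Tnnc1 and Tnnt1 in that muscle lay inside or close to the brain range. The mean over 10 slow-fibre genes was 10.1, 10.3, 9.72 and 7.93, whereas the mean over 13 fast-fibre genes was 13.2, 13.2, 13.3 and 13.2. Atp2a2 was lowest in the same mouse.

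Among brains, replicate 6 lacked a cerebellar gene that the others had. Pcp2, a Purkinje cell protein, read 4.51 there and 9.35 to 10.5 in the other 5 brains, and Cbln1, a synapse organiser of cerebellar granule cells, 9.07 against 11 to 12. The mean of 10 cerebellar genes was 7.31 in replicate 6 and 8.9 to 9.44 in the others. Pmch, the melanin-concentrating hormone of the lateral hypothalamus, had a lowest, median and highest brain level of 4.53, 9.85 and 10.9. The pituitary hormones Prl and Gh had highest brain levels of 11 and 9.09 and lowest levels of 4.24 and 4.19, at background. Muscle levels of both stayed between 4.24 and 4.51. Neither difference passed the adjusted p (limma adjusted p = 0.0653 for Prl and 0.0776 for Gh).

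Other probes were low on arrays that stood apart, brain replicate 1 at times with them. Pi4kb, a lipid kinase, read 7.71, 4.37, 7.43 and 7.77 in muscle, low in replicate 2. Pdpk1, a kinase of insulin signalling, read 8.04, 4.55, 7.51 and 7.69 in muscle, again low in replicate 2, and 4.78 to 8.87 in brain, low in replicates 1, 2 and 4. Eef2, the elongation factor, ranged from 4.33 to 8.51 in brain, low in replicates 2 and 4, and neither it (limma adjusted p = 0.0955) nor Pdpk1 (limma adjusted p = 0.927) passed the test. The tissue differences of such genes are not well measured here.

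**Figure D5:**
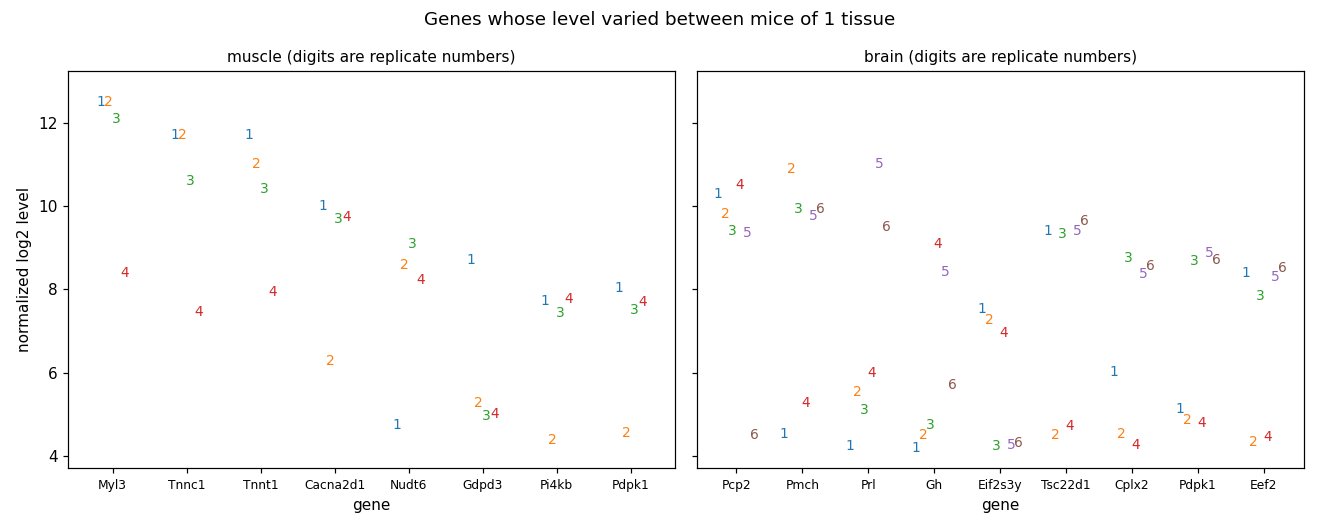
Normalized log2 level of genes that varied between mice, in muscle (left, 4 mice) and brain (right, 6 mice), with each digit giving the replicate number. Muscle 4 lies low for Myl3, Tnnc1 and Tnnt1, muscle 2 for Pi4kb and Pdpk1, and brain 6 for Pcp2.

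The same comparison in the mutant mice of the study, which are other animals, gave largely the same genes. Of 2837 probes (20.8%) called higher in muscle in wild type, 2816 were tested in mutants and 2536 (89.4% of the 2837) were called higher in muscle there. Of 2690 (19.7%) called higher in brain, 2469 (91.8% of the 2690) were called higher in brain, and 0 probes of either set were called in the opposite direction. Over all probes tested in mutants 20.7% were called higher in muscle and 19.6% higher in brain. In mutants 11 genes switched, 9 of them among the 15 of wild type.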

How the data were processed

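RNA of each tissue was hybridised to Illumina MouseRef-8 bead arrays, 1 mouse per array. The deposited file holds each probe's intensity, which is neither background-subtracted nor normalized, and a detection p-value against the negative controls, both exported from GenomeStudio 2011.1, per the submitters' processing notes. A second deposited table was not used, because its values appear to have been normalized within each tissue. The 20 arrays were mapped to tissue and genotype by their titles, and the 10 wild-type arrays were processed together. The number of arrays limits the precision, and p-values measure the spread between mice.

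Intensities were background-corrected by normexp with parameters inferred from the detection p-values, given an offset of 16, quantile normalized and taken to log2 with limma 3.58.1 in R 4.3.3. Probes above background (detection p under 0.05) on at least 4 of the 10 arrays were fitted with lmFit and eBayes on tissue alone, and p-values were adjusted by Benjamini-Hochberg over all 13629 probes tested. The difference between 2 probes of a gene was tested in the same way over 4156 pairs. A switch needs an adjusted p under 0.05 and a probe called 2-fold in each direction. A shared gene was above background on all 10 arrays with a 95% interval within 1.5-fold. If no array of the dimmer tissue exceeded background for a probe, its fold is a lower bound. It sets the brighter tissue's mean against a mean over the dimmer tissue's arrays. On each of these arrays the higher of the probe's own level and the lowest level among probes above background was used. Where only some arrays of the dimmer tissue exceeded background, the fitted size is given, and it rests partly on background level.

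Gene names came from the platform annotation, which names a single gene for 23978 probes and leaves 1719 unnamed, with 0 probes of several genes, and matching to RefSeq changed 0 symbols. The genes named are those with the largest differences in each direction, the brightest above background in 1 tissue only, the extremes of each list, members of split families, switching genes, the brightest shared genes and those that vary most between mice. Marker genes of cell types were also named. The gene lists, families and rules were chosen with earlier results of these data known. The fit was tested on simulated data.

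Alternatives covered background correction, normalization, offset, detection filter, variance model, array weights, the call rule, a block on the replicate number and leaving out each array. Leaving out arrays that stood apart, leaving out brain arrays without Eif2s3y, and a detection p of 0.01 for the count of probes above background were chosen after seeing the data. Promoter windows were read from the RefSeq table of build GRCm38.p6. Values of the mutant arrays enter only the repeat of the comparison and the joint normalization of all 20 arrays.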

Additional observations from a re-analysis of the deposited data

Results flagged for a closer look

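For the 148 tested genes named in the text, the highest and lowest array of each tissue was compared with the others of that tissue by Dixon's gap test. Of 296 sets of arrays, 32 had an array that lay apart. Chance flags about 1 in 20 groups. The named genes include some picked for their large SD between mice of a tissue, so the 32 cannot be set against that share. All values are normalized log2 levels.

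Muscle replicate 2 accounted for 10 of the 32. It was high in the fibroblast gene Col1a1, at 10.8 where the other 3 muscles read 7.78 to 8.19, and in the macrophage gene Lyz2, at 10.6 beside 7.91 to 8.19. It was low in the kinases Pdpk1 (4.55, others 7.51 to 8.04) and Pi4kb (4.37, others 7.43 to 7.77). Smaller gaps in the same mouse were found for Pgam2 (12.4, others 12.9 to 13), Ckm (13.6, others 14), Fth1 (13.9, others 13.7 to 13.8), Rps20 (13.4, others 13.2) and Rpl3 (10.3, others 10.4 to 10.5), and at background level for Mobp (4.32, others 4.2 to 4.21).

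Muscle replicate 4 had the widest gap of the muscle set in the slow myosin light chain Myl3, at 8.38 where the others read 12.1 to 12.5. It was also apart for Sh3gl2 (5.2, others 4.44 to 4.52), Pcp2 (4.77, others 4.26 to 4.34), Dnajc6 (4.32, others 4.24 to 4.25), and by a small gap for Mylpf (14.1, others 14.2) and Tnnc2 (14.2, others 14.3). Muscle replicate 1 was apart for Cplx1 (4.9, others 4.23 to 4.29), Aldoc (4.27, others 4.44 to 4.48) and Rpl3l (13.4, others 13.5).

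Among brains, replicate 6 was low in the cerebellar genes Pcp2 (4.51, others 9.35 to 10.5) and Cbln1 (9.07, others 11 to 12), and apart at background level for Mybpc2 (4.43, others 4.25 to 4.29). Replicate 4 was low in the ribosomal gene Rps15a (6.91, others 9.04 to 9.38) and high in Rasgrf1 (13.8, others 13.6). Replicate 2 was high in 3 muscle genes, Tnnc1 (7.58, others 6.33 to 6.59), Ttn (5.27, others 4.38 to 4.58) and Cox8b (6.25, others 5.67 to 5.83). Replicate 1 was low in Mbp (13.7, others 13.9 to 14.1) and Ckmt1 (11.7, others 11.8 to 11.9), replicate 3 high in Hspb1 (5.59, others 4.98 to 5.1) and replicate 5 high in Des (5.17, others 4.96 to 4.99) and the keratin Krt10 (8.86, others 8.62 to 8.71).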

How the results depend on the processing

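Without background correction 1432 probes were called higher in muscle and 1524 in brain (1071 and 1241 genes), 2511 genes were shared and 4 genes switched. The counts of several lists then fell by over 1.5 times, to 3 pancreatic genes, 9 endothelial genes and 6 proteasome, 7 adipocyte, 5 muscle regulator, 3 neuromuscular, 3 ribosomal, 3 microglial, 1 autophagy and 1 immediate early genes higher in muscle, and to 12 ion channel, 12 postsynaptic and 9 neuronal regulator genes higher in brain, with 0 neuronal regulators higher in muscle. With an offset of 50, 1752 genes were shared, 5 switched and 8 pancreatic, 2 autophagy and 1 immediate early genes were higher in muscle. Under limma's treat at 2-fold 4 genes switched. Median scaling left 256 shared genes, a 2-fold interval gave 2602, limma's treat at 2-fold called 1869 probes higher in muscle, and without a detection filter 4397 probe pairs were called. The cause of these shifts was not tested. Between 24 and 33 families split under the alternatives.

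Leaving out 1 array, or brain replicates 3, 5 and 6, gave 1959 to 2040 genes higher in muscle, 2089 to 2184 higher in brain, 755 to 1065 shared genes and 11 to 15 switching genes. Without muscle replicate 2 and brain replicates 2 and 4 these were 1904, 2005, 1353 and 13. The replicate numbers do not pair the mice, since muscle and brain came from different animals and same-numbered arrays correlated in their deviations at 0.11, 0.33, 0.12 and -0.17. A replicate block gave 9657 probes past the adjusted p, against 10051 without it, with 1975 genes higher in muscle, 2125 in brain, 952 shared and 16 switching.

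Of 135 genes named in the text and past the adjusted p, 134 were tested in mutants. Of the 135, 127 kept their direction and that p in every one of the 24 alternatives that tested them. Hk1, Pmch, Uqcrh and Atp5g3 missed it without brain replicates 3, 5 and 6, and Calm3 and Tpm1 missed it under median scaling, and Myh6 under both. Gfap missed it in several settings. Genes with differences near 0, or with an array far from the rest, changed sign. Atp5b was 0.84 under median scaling and 0.0123 in mutants, and Rps20 was 1.08 under median scaling, 0.331 under cyclic loess and -0.073 to 0.00572 over single arrays left out, highest without brain replicate 2. Fth1 was 0.892 and 0.0412 under median scaling and cyclic loess, and Glul -0.0291 under median scaling. Capza1 was -0.0986 under median scaling, -0.00021 under cyclic loess, -0.0548 to 0.242 over single arrays left out (lowest without muscle replicate 3) and -0.012 without brain replicates 3, 5 and 6. Pdpk1 was -0.0723 without background correction, -0.00451 with an offset of 50, -0.355 with array weights, -1 in mutants and -0.144 without the 3 arrays that stood apart. Over single arrays left out it lay between -0.302 (brain replicate 4) and 0.875 (muscle replicate 2). Pi4kb was 0.00346 without background correction, 0.272 with the replicate block, 0.742 without brain replicates 3, 5 and 6, and between -0.419 (muscle replicate 4) and 0.704 (muscle replicate 2) over single arrays left out. Dim probes limit what can be said of genes near background.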

Other observations

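Factors of pre-mRNA splicing were measured as a list of 37 tested genes, of which 3 were higher in muscle and 10 higher in brain (median difference -0.41), against 20.5% and 21.8% of all genes. Hnrnpl, an RNA-binding splicing regulator, read 8.44, 9.26, 8.77 and 8.2 in muscle against a lowest, median and highest of 11, 11.2 and 11.8 in brain (difference -2.67, limma adjusted p = 2.1e-07). Matr3, a nuclear matrix RNA-binding protein, differed by -2.44. Snrpd3, a core protein of spliceosomal particles (1.56), and Hnrnpa2b1 (1.44) were higher in muscle.

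Of 14 circadian clock genes 3 (21.4%) were higher in muscle and 3 higher in brain, close to the shares over all genes, and without background correction 1 and 0 were. The repressors Nr1d1 and Nr1d2 both differed by 1.52, against -1.18 for Per2 and -1.78 for Ciart. Of 26 translation factors 5 (19.2%) were higher in muscle, near the share over all genes, 2 higher in brain and 8 shared. Median scaling gave 9 and 0, leaving out brain replicates 3, 5 and 6 gave 9 and 2, and no background correction gave 2 and 2. Of 8 Schwann cell and peripheral nerve genes 1 was higher in muscle and 3 in brain, of 8 choroid plexus genes 1 and 4 (2 in brain without background correction), and of 13 hypothalamus and pituitary genes 0 and 10 (6 in brain without brain replicates 3, 5 and 6).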
